A study of Homo sapiens with 12 samples.

Results

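The genes described here come mostly from families of proteases that cut the surroundings of a cell and of proteins that hold those proteases back. Some members do neither, among them SERPINH1, SERPINF1, ADAM23, PLAUR and BSG. All members were taken by symbol: every listed gene whose symbol starts with SERPIN or ADAMTS, or with MMP, ADAM or TIMP followed by a digit, together with PLAT, PLAUR, RECK and BSG. Hyphenated symbols were left out (2 rows). This gave 41 members of 12616 listed genes, namely the plasminogen activator PLAT and the receptor PLAUR, 9 serpins, 7 matrix metalloproteases (MMPs), 10 ADAMs, 8 ADAMTS or ADAMTS-like genes, 3 TIMPs, RECK and BSG. PLAU, which the rule would also take, was not among the listed genes.

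RNA was measured in 2 human melanoma lines, MeWo and SkMel28, both engineered with a hairpin against the transcription factor MITF that is switched on by doxycycline (Dox). Each line was sampled after 8 days at 0 µg/ml Dox (control) or at 1 µg/ml Dox, with 3 libraries in each of the 4 groups. All 12 libraries thus carry the hairpin construct, and no hairpin-free line given Dox is part of these comparisons, so the effects of the hairpin and of the drug cannot be told apart. The labels give EMEM for MeWo and RPMI for SkMel28, whereas the study's methods give RPMI for human melanoma lines other than HBL. Under the labels' account, medium and line cannot be told apart either. Nothing in the sources says how the libraries of a group relate beyond separate labels, and p-values therefore measure the spread between these libraries.

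Plasminogen is turned by its activators into plasmin, a broad serine protease that degrades fibrin and activates other proteases. Serpins trap serine proteases by a one-way change of shape, and the uptake of protease-serpin complexes by receptors of the LDL receptor family clears them. MMPs and the secreted ADAMTS enzymes cleave matrix proteins, the membrane-bound ADAMs release ectodomains of growth factors and adhesion molecules, and TIMPs and RECK inhibit these metalloproteases. In melanoma, these systems are studied for their part in invasion, and low MITF is associated with an invasive, dedifferentiated state.

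Values are reads normalised to effective library size, scaled to a common total, and are written as mean ± SD (n = 3) where means are given. The libraries held 2568187 to 3714608 reads, and 12047 to 12339 genes were detected in each. A change is a difference of log2(value + 1) with its standard error (SE) from limma, which understates changes of low genes, and called genes are those whose adjusted p (Benjamini-Hochberg over 12616 genes) was under 0.05. MITF itself had lower means with Dox, 392 beside 676 in MeWo (adjusted p = 6.49e-05, log2 -0.79) and 568 beside 797 in SkMel28 (adjusted p = 0.00705, log2 -0.49). All 9 melanocyte lineage markers were listed, and their summed level was 13609 to 13854 in MeWo control, 6850 to 8561 in MeWo Dox, and 11892 to 13269 and 7785 to 8152 in the corresponding SkMel28 groups. PMEL, a melanosome protein, made up much of this sum, at 7450 and 3261 in MeWo, while S100B was higher with Dox in both lines (log2 1.96 in MeWo and 1.14 in SkMel28) and DCT higher in MeWo (log2 0.91, adjusted p = 2.71e-05). Of the markers of other cell types, 2 of 8 fibroblast genes were listed, at a summed 41.5 to 47.8 in MeWo control, 9.85 to 19.2 in MeWo Dox, and 10.9 to 13.3 and 6.04 to 8.91 in the corresponding SkMel28 groups. Of 7 keratinocyte genes 2 were listed (KRT10 and CDH1), at a summed 176 to 215 and 171 to 190 in MeWo control and Dox and 90.8 to 109.8 and 112 to 117 in SkMel28. Of 7 leukocyte genes 2 were listed (CD68 and HLA-DRA), at a summed 133 to 151 and 65.1 to 150.04 in MeWo control and Dox and, higher with Dox, at 95.8 to 116 and 162 to 186 in SkMel28. HLA-DRA was higher with Dox in both lines, with means of 0.108 and 4.07 in MeWo (log2 2.02, adjusted p = 0.000309) and of 16.7 and 156 in SkMel28 (log2 3.15, adjusted p = 5.73e-06), while CD68 was lower in SkMel28 (log2 -2.03, adjusted p = 1.71e-05). The fibroblast gene COL1A1, the keratinocyte gene KRT5, the leukocyte gene PTPRC and the endothelial gene PECAM1 were not among the listed genes, and the part of other cell types in the results was not tested. MeWo Dox replicate 1 stood apart from the other MeWo Dox libraries, with a correlation across genes down to 0.960, and several calls changed without it, as given beside the genes concerned.

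More of these genes rose than fell with Dox, in both lines. In MeWo 14 members were higher and 3 lower, so that 17 of 41 were called (41.5%), whereas 16.7% of all listed genes were called (8.58% higher and 8.12% lower). In SkMel28 14 members were higher and 1 lower, which made 15 of 41 (36.6%) beside 10.9% of all genes (5.88% higher and 5.04% lower). These counts include SERPINA5 in MeWo and MMP1 in SkMel28, which were listed only through their Dox libraries. The members were also chosen with earlier results of these data known, which the shares do not take into account. The median change of the members was 0.32 in MeWo and 0.49 in SkMel28, while the median over all genes was 0.00 in each line. The members together took 0.521 ± 0.031% of the gene reads in MeWo control and 0.825 ± 0.111% in MeWo Dox, where the libraries were at 0.700, 0.867 and 0.909%. In SkMel28 their share was 0.413 ± 0.004% in control and 0.756 ± 0.006% in Dox, and in neither line did the groups overlap. A few genes carried much of this share. In replicate 2, TIMP2 held 8382 of 12601 member reads in MeWo control and 15884 of 23669 in MeWo Dox. SERPINE2 held 2153 of 11598 in SkMel28 control and 7465 of 19127 in SkMel28 Dox. Without MeWo Dox replicate 1, 21 members were called in MeWo, including all 17, and 19 in SkMel28, but the share of all genes called also rose, to 31% in MeWo and 16.2% in SkMel28.

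**Figure D1:**
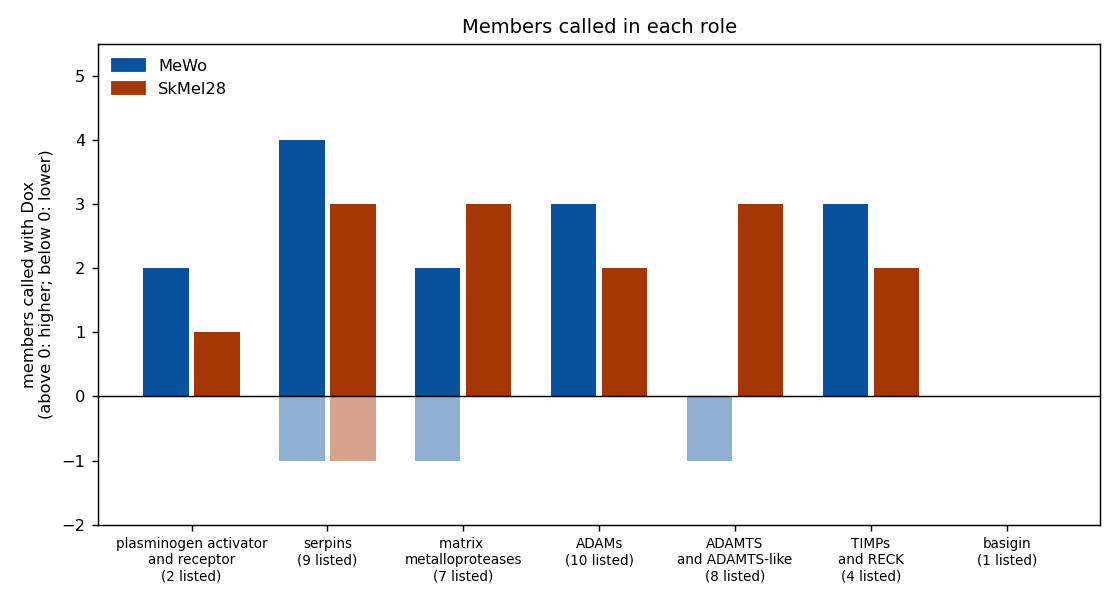
Number of members called higher (bars above 0) and lower (paler bars below 0) with Dox for each role, with MeWo in blue and SkMel28 in brown. Every role except basigin held called members in both lines. Of the 8 ADAMTS and ADAMTS-like genes, 1 was called lower in MeWo and 3 higher in SkMel28. The MeWo gene, ADAMTS14, lost its call in 7 alternatives and had no reads in SkMel28, so these counts do not show that the role differed between the lines.

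The same 11 genes made up much of both lists: 64.7% of the members called in MeWo and 73.3% of those called in SkMel28. Over all genes 515 were called in both lines, which was 24.4% of the genes called in MeWo and 37.4% of those called in SkMel28. Of these, PLAT, SERPINA3, SERPINE2, SERPINH1, TIMP1, TIMP3, MMP15, MMP16, ADAM19 and ADAM23 were higher with Dox in both lines, and SERPINF1 was lower in both. A further 6 members were called in MeWo and not in SkMel28 (PLAUR, SERPINA5, MMP2, ADAM15, ADAMTS14 and TIMP2), and 4 in SkMel28 and not in MeWo (MMP1, ADAMTS1, ADAMTS9 and ADAMTS17). The remaining 20 were called in neither. The single-line members made up 35.3% of the MeWo calls and 26.7% of the SkMel28 calls, a smaller part than over all genes. A call in a single line does not show that the lines differ, and the test of that difference is given further on.

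**Figure D2:**
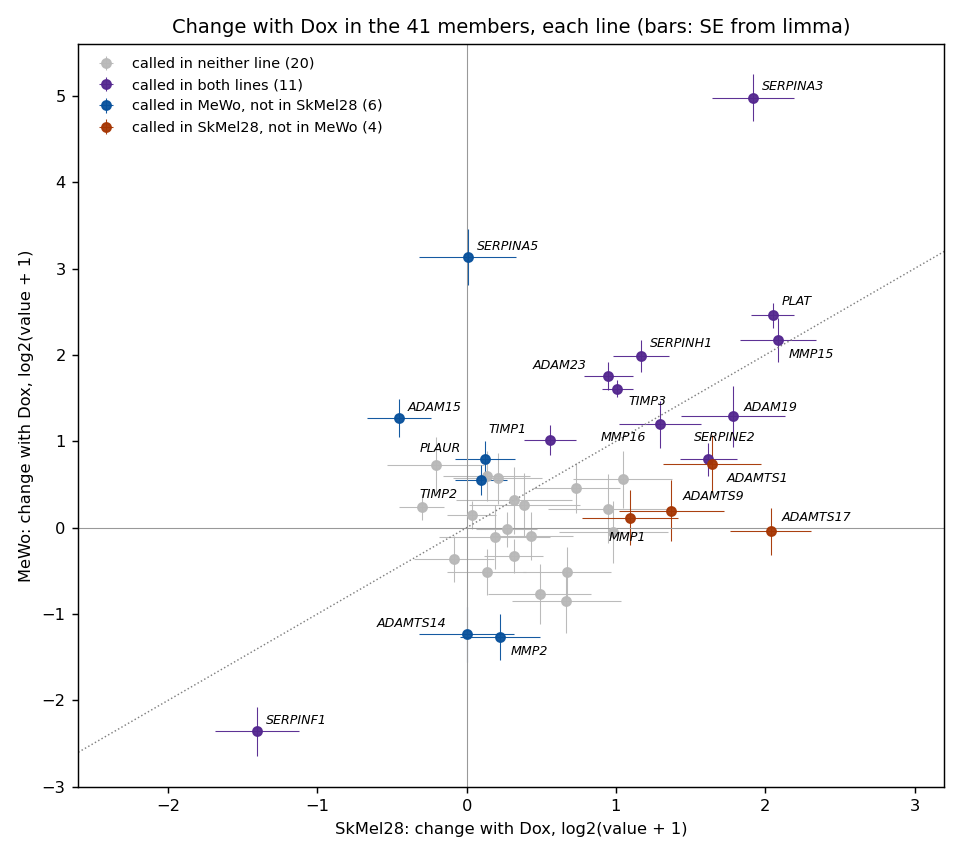
Change with Dox in SkMel28 (horizontal) against the change in MeWo (vertical) for the 41 members, both as differences of log2(value + 1) with bars of 1 SE, coloured by the lines in which a member was called, and with a dotted line where the changes are equal. The 10 members called higher in both lines lie at the upper right, and SERPINF1 lies alone at the lower left, at -1.40 in SkMel28 and -2.36 in MeWo.

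The plasminogen activator rose strongly in both lines. PLAT encodes tissue plasminogen activator, the secreted serine protease that turns plasminogen into plasmin. In MeWo its control libraries were at 24.2, 23.3 and 22.0 and its Dox libraries at 166, 112 and 123. In SkMel28 they were at 92.4, 84.1 and 72.8 in control and at 337, 338 and 363 with Dox. No Dox library overlapped the controls of its line. The mean was 5.77-fold higher in MeWo (log2 2.46, SE 0.14, adjusted p = 5.33e-09) and 4.16-fold higher in SkMel28 (log2 2.05, SE 0.14, adjusted p = 1.17e-07). PLAT was called in every alternative analysis in both lines.

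PLAUR, the membrane-anchored receptor for the urokinase-type activator (chr19:43646095-43670547, minus strand, hg38), was called in MeWo alone. Its MeWo control libraries were at 8.64, 13.2 and 10.7 and the Dox libraries at 25.5, 13.6 and 20.7, so that the lowest Dox library lay just above the highest control (log2 0.80, SE 0.20, adjusted p = 0.0122). This call was lost without MeWo control replicate 1 (log2 0.66, adjusted p = 0.0632) and when MeWo was fitted alone (adjusted p = 0.152). In SkMel28 PLAUR was at 45.1, 43.5 and 44.5 in control and at 47.8, 46.1 and 51.4 with Dox (log2 0.12, SE 0.20, adjusted p = 0.784).

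The serpins included the steepest rise of any member, that of SERPINA3 in MeWo. Of 9 listed, 4 were called higher and 1 lower in MeWo, and 3 higher and 1 lower in SkMel28. SERPINA3 encodes alpha-1-antichymotrypsin, an inhibitor of chymotrypsin-like proteases such as cathepsin G (chr14:94612384-94624055, plus strand). In the MeWo control libraries it stood at 0, 0 and 0.324, which is a single read in all, and in the Dox libraries at 37.3, 39.0 and 26.1, or 297 reads. The ratio of these levels, from the reads summed over each group and its summed effective library size, was 311 with an exact 95% counting interval of 55.4 to 1.23e+04, which covers counting error only (log2 4.98, SE 0.28, adjusted p = 5.33e-09). In SkMel28 it was at 3.62, 1.59 and 3.45 in control and at 11.3, 15.0 and 13.6 with Dox, 4.61-fold higher (log2 1.92, SE 0.28, adjusted p = 0.00016). In both lines all Dox libraries exceeded all controls.

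The neighbouring SERPINA5 (chr14:94561442-94593118, plus strand), which encodes the protein C inhibitor, was found in MeWo Dox and hardly elsewhere. Its MeWo control libraries were at 0, 0.389 and 0 and the Dox libraries at 6.38, 6.44 and 15.9. These are 1 read against 84, a ratio of 88 with a 95% counting interval of 15.4 to 3.51e+03 (log2 3.13, SE 0.32, adjusted p = 3.1e-06). In SkMel28 every library held 1 read or none, at both doses, so no fold is given. Listed genes reach 1 in at least 3 libraries, and SERPINA5 did so in the MeWo Dox libraries alone. Its direction in MeWo thus followed from being listed, which the p-value does not take into account.

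SERPINE2, or protease nexin-1, inhibits thrombin, urokinase and plasmin at the cell surface (chr2:223975045-224039318, minus strand). Its MeWo control libraries were at 397, 398 and 426 and the Dox libraries at 1082, 544 and 592. Its SkMel28 control libraries were at 953, 683 and 909.7 and the Dox libraries at 2579.7, 2495 and 2666. All Dox libraries exceeded the controls in each line, and MeWo Dox replicate 1 was far above the other MeWo Dox libraries. The mean rose 1.82-fold in MeWo (log2 0.79, SE 0.19, adjusted p = 0.00843) and 3.04-fold in SkMel28 (log2 1.62, SE 0.19, adjusted p = 2.23e-05). Without MeWo Dox replicate 1 the MeWo change was 0.48 (adjusted p = 0.00334), and with MeWo fitted alone its adjusted p was 0.138.

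SERPINH1 encodes HSP47, a chaperone of collagen in the endoplasmic reticulum that does not inhibit proteases (chr11:75562056-75572783, plus strand). Its MeWo libraries rose from 112, 88.2 and 92.3 to 273, 412 and 515, and its SkMel28 libraries from 70.2, 99.96 and 88.5 to 197, 175 and 207. The groups did not overlap in either line. The mean was 4.11-fold higher in MeWo (log2 1.99, SE 0.19, adjusted p = 9.71e-07) and 2.24-fold higher in SkMel28 (log2 1.17, SE 0.19, adjusted p = 0.000463).

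SERPINF1 was the only member called lower in both lines. It encodes PEDF, a secreted serpin without inhibitory activity that is known as a brake on vessel growth (chr17:1762029-1777565, plus strand). In MeWo it went from 19.0, 25.6 and 23.6 to 1.92, 6.06 and 3.73, and in SkMel28 from 27.0, 21.6 and 20.3 to 6.23, 7.69 and 10.6. All Dox libraries lay under all controls, with means 5.83-fold lower in MeWo (log2 -2.36, SE 0.28, adjusted p = 1.54e-05) and 2.81-fold lower in SkMel28 (log2 -1.40, SE 0.28, adjusted p = 0.0033). The intracellular serpins were called in neither line. SERPINB1, an inhibitor of neutrophil proteases, was at 14.0 to 22.3 in all MeWo libraries and at 22.3 to 35.8 in SkMel28, with changes of -0.02 (adjusted p = 0.977) and 0.27 (adjusted p = 0.47). SERPINB6 was at 25.4 to 42.4 in MeWo and 79.9 to 97.6 in SkMel28, with changes of 0.15 and 0.03. SERPINI1, or neuroserpin, did not exceed 2.67 in any library.

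**Figure D3:**
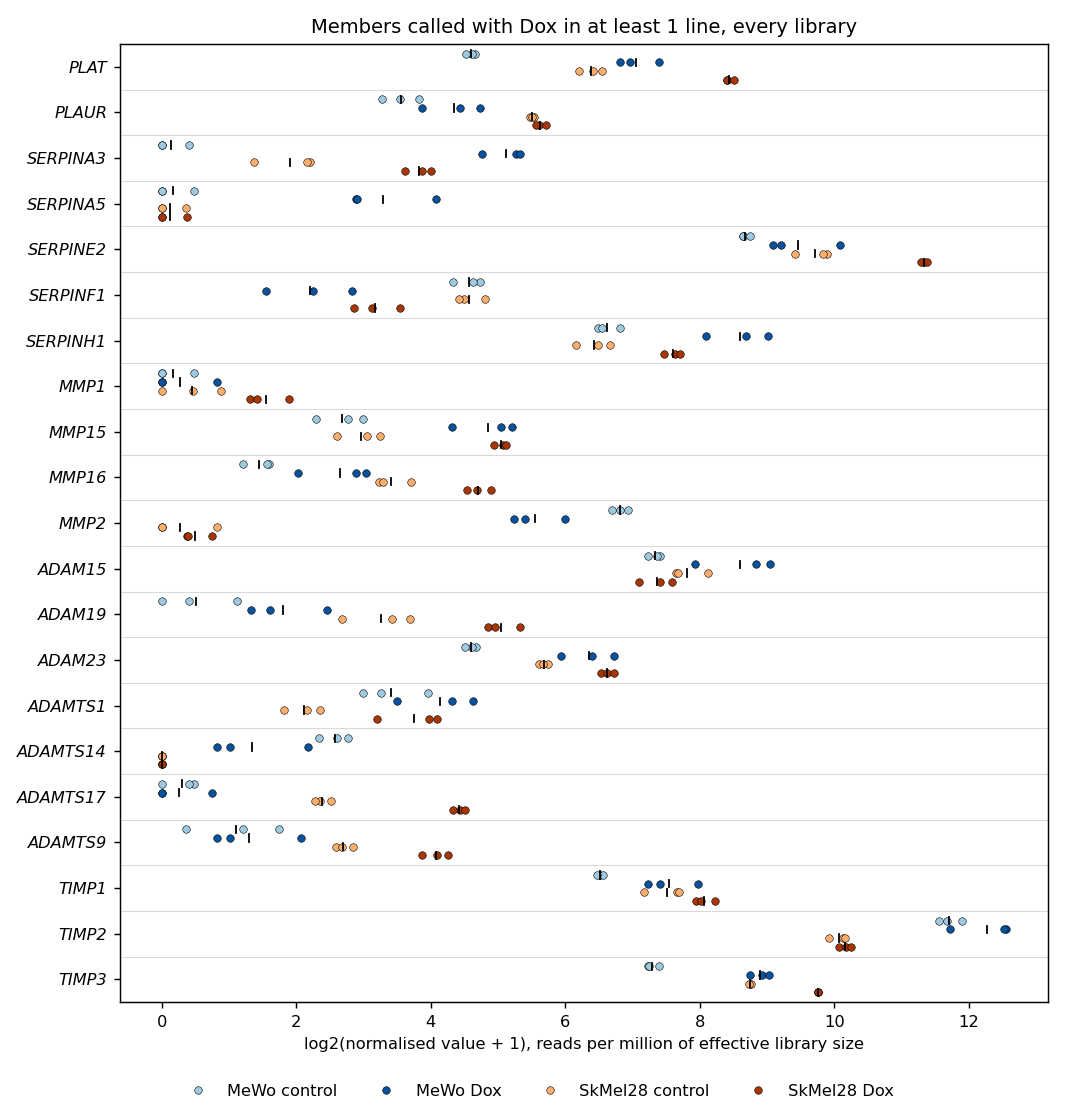
Level of the 21 members called with Dox in at least 1 line, as log2(normalised value + 1), in every library of MeWo control, MeWo Dox, SkMel28 control and SkMel28 Dox, with 1 point per library and a short vertical line at each group's mean. PLAT and TIMP3 lie higher with Dox without overlap in both lines, SERPINF1 lies lower in both, and ADAM15 lies higher with Dox in MeWo and lower in SkMel28.

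The promoters of these genes are shown because MITF binds E-boxes, in particular CACGTG and TCACGTG, and because AP-1 factors, long studied as activators of protease genes, bind TGANTCA. RefSeq windows (GRCh38.p14) of 250 bases before to 50 bases from a transcription start were found for 29 of the 41 members, in 35 windows, and not for the other 12. CACGTG was in 4 of the 35 member windows (11.4%), in 7.26% of all 35116 windows and in 9.52% of the windows of listed genes. TCACGTG, which contains it, was in 3 (8.57%) beside 3.71% of all windows and 5.47% of those of listed genes. TCATGTG was in 2 (5.71%) beside 2.92% and 1.89%, and TGANTCA in 2 (5.71%) beside 7.71% and 5.17%, so that the member share lay under the one and above the other. Both strands were searched, and a match is a description of letters only.

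The windows below are those of 3 members whose calls with Dox differed, and that of PLAUR, called higher in MeWo. The 3 were SERPINE2 (higher in both lines), ADAMTS17 (higher in SkMel28, at the floor in MeWo) and ADAM10 (called in neither). For PLAUR the change was not called different between the lines by the interaction test of limma (log2 0.67, adjusted p = 0.153). The printed windows were picked among those with a match. The windows of SERPINA3, SERPINH1, MMP15, ADAM19, ADAM23, TIMP1 and TIMP3, called higher in both lines, held none of the motifs. Matches were also found in BSG, MMP8, SERPINB6 and SERPINB8, called with Dox in neither line. Each printed window is given 5′ to 3′ on the gene's strand, and capitals mark matches to the motifs named in these paragraphs.
SERPINE2 (chr2:224031429-224031728, minus strand): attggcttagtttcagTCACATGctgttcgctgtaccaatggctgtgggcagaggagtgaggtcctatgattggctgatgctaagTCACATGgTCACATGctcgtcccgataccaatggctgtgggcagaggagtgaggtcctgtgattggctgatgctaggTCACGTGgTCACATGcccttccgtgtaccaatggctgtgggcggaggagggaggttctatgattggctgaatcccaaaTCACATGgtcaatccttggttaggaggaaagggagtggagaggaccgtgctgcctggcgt
ADAMTS17 (chr15:100341926-100342225, minus strand): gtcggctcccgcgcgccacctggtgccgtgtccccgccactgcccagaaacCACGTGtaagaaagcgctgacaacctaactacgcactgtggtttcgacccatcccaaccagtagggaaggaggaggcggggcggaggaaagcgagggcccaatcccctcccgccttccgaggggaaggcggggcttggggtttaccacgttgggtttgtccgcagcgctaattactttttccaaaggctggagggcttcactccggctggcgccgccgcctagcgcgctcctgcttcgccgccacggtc
ADAM10 (chr15:58749658-58749957, minus strand): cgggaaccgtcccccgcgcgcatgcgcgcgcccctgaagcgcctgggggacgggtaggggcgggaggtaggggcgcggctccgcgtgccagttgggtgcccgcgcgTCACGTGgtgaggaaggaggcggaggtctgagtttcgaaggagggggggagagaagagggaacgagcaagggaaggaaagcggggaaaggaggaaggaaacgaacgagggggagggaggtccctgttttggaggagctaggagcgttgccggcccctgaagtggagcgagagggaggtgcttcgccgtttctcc
PLAUR (chr19:43670120-43670419, minus strand): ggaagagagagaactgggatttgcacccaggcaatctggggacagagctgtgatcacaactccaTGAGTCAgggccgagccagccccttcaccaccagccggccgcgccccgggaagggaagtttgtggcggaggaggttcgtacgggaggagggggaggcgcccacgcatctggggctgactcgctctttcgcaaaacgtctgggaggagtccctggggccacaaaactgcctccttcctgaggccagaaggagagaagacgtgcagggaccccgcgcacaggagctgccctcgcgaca
The CACGTG core began 87 bases before the start in SERPINE2, 199 in ADAMTS17 and 143 in ADAM10, and the TGANTCA match began 186 bases before it in PLAUR. The SERPINE2 window, at the more 3′ of its 2 listed starts, also held 5 copies of TCACATG, a related E-box. This motif was added to the search after the window had been read, and it occurred in 3.36% of all windows. No other of the 35116 windows held 5 or more copies, but because the motif was read from this window, that rank carries no weight. Longer stretches around the copies also recur along the printed window. The second SERPINE2 window held none of the motifs, and the 3′ end reads do not tell which start was used.

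Among the MMPs, the membrane-type enzymes MMP15 and MMP16 rose in both lines, and the secreted gelatinase MMP2 fell in MeWo. MMP15 (chr16:58025754-58046901, plus strand) encodes a membrane-anchored collagenase and activator of pro-MMP2. Its MeWo libraries went from 6.91, 5.83 and 3.89 to 18.8, 36.0 and 31.8, and its SkMel28 libraries from 7.24, 5.08 and 8.43 to 29.7, 32.8 and 33.8. The groups did not overlap in either line, and the means were 5.21-fold higher in MeWo (log2 2.17, SE 0.26, adjusted p = 1.27e-05) and 4.64-fold higher in SkMel28 (log2 2.09, SE 0.26, adjusted p = 3.41e-05). MMP16, another membrane-type MMP, went from 2.02, 1.94 and 1.30 to 6.38, 7.20 and 3.05 in MeWo and from 8.35, 12.1 and 8.81 to 22.3, 24.7 and 28.7 in SkMel28. It was 3.17-fold higher in MeWo (log2 1.20, SE 0.27, adjusted p = 0.00607), a call lost with MeWo fitted alone (adjusted p = 0.0848), and 2.59-fold higher in SkMel28 (log2 1.30, SE 0.27, adjusted p = 0.00459).

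MMP2 degrades denatured and basement membrane collagen (chr16:55389700-55506691, plus strand). In MeWo it stood at 122, 112 and 103 in control and at 62.9, 36.8 and 41.3 with Dox, all below the controls, and was 2.38-fold lower (log2 -1.27, SE 0.27, adjusted p = 0.00329). With a pseudocount of 0.1 the change was -1.29 but the adjusted p was 0.188. In SkMel28 its libraries were at 0, 0 and 0.766 in control and at 0.297, 0.668 and 0.302 with Dox, at the floor of 3 reads per library, and no fold is given.

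MMP1, the interstitial collagenase, was called in SkMel28 at very low levels. It reached the value of 1 needed for listing in the SkMel28 Dox libraries alone, so its direction there followed from being listed. Its control libraries were at 0.835, 0 and 0.383 and its Dox libraries at 1.48, 1.67 and 2.72, or 4 reads against 19, a ratio of 4.59 with a counting interval of 1.53 to 18.6 (log2 1.09, SE 0.32, adjusted p = 0.0347). This call was lost in 8 of the 20 alternatives that gave it a value, among them without SkMel28 control replicate 2 or 3 or any single SkMel28 Dox library (log2 0.87 to 1.21, adjusted p = 0.0593 to 0.142). MMP8, the neutrophil collagenase, went in SkMel28 from 8.91, 12.7 and 8.05 to 23.7, 24.7 and 13.9 without overlap, and was not called (log2 0.98, SE 0.36, adjusted p = 0.0977). It was called in 5 alternatives, among them edgeR (adjusted p = 0.0311), DESeq2 (adjusted p = 0.0357) and without MeWo Dox replicate 1 (adjusted p = 0.0231).

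MMP14, the main cell surface activator of pro-MMP2, split within groups. It was at 48.7, 60.2 and 74.8 in MeWo control, at 55.9, 58.7 and 115 in MeWo Dox, at 59.0, 165 and 56.7 in SkMel28 control and at 146, 137 and 62.6 in SkMel28 Dox. The groups overlapped in both lines, with changes of 0.26 (adjusted p = 0.687) and 0.39 (adjusted p = 0.597). The sheddase ADAM9 was high and low in the same libraries, at 50.1 in MeWo Dox replicate 3 where the other MeWo Dox libraries were at 20.7 and 18.2, at 22.8 in SkMel28 control replicate 2 where the others were at 10.9 and 11.5, and at 13.3 in SkMel28 Dox replicate 3 where the others were at 40.7 and 41.4. Its SkMel28 change of 0.95 was not called (adjusted p = 0.154) but was without that last library (log2 1.47, adjusted p = 0.0187). MMP17, a GPI-anchored MMP, was at 1.17 to 5.69 in MeWo and at 10.1 to 16.3 in SkMel28 and was called in neither line.

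Of 10 ADAMs, 3 were called in MeWo and 2 in SkMel28, all higher. ADAM23, a catalytically inactive adhesion protein that binds integrins and LGI proteins (chr2:206443532-206621127, plus strand), rose in MeWo from 24.5, 23.3 and 21.7 to 60.3, 83.0 and 105 and in SkMel28 from 47.9, 52.7 and 49.8 to 91.4, 96.9 and 105. Its groups did not overlap, with means 3.57-fold higher (log2 1.76, SE 0.16, adjusted p = 9.53e-07) and 1.95-fold higher (log2 0.95, SE 0.16, adjusted p = 0.000933). ADAM19, an active sheddase of neuregulins (chr5:157395534-157575775, minus strand), went in SkMel28 from 9.74, 5.39 and 11.9 to 27.9, 30.1 and 39.3, which was 3.6-fold higher (log2 1.78, SE 0.35, adjusted p = 0.00268). In MeWo it was low, at 0, 1.17 and 0.324 in control and 4.47, 1.52 and 2.03 with Dox. These were 4 reads against 24, a ratio of 6.28 with a counting interval of 2.16 to 24.9 (log2 1.29, SE 0.35, adjusted p = 0.018). The MeWo call was lost without MeWo control replicate 1 (log2 1.03, adjusted p = 0.0852) or 3 (log2 1.24, adjusted p = 0.0627), with MeWo fitted alone (adjusted p = 0.119) and with a pseudocount of 5 (log2 0.47, adjusted p = 0.111).

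ADAM15 rose in MeWo and not in SkMel28. This membrane protease carries an RGD integrin-binding sequence (chr1:155050566-155062775, plus strand). Its MeWo libraries were at 168, 164 and 148 in control and at 243, 526 and 455 with Dox, all above the controls, and the mean was 2.55-fold higher (log2 1.27, SE 0.22, adjusted p = 0.000549). With MeWo fitted alone the adjusted p was 0.0556. In SkMel28 it was at 198, 278 and 204 in control and at 169, 135 and 191 with Dox, all below the controls, and the change was not called (log2 -0.45, SE 0.22, adjusted p = 0.217), although it was without MeWo Dox replicate 1 (adjusted p = 0.0227).

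The main sheddases ADAM10 and ADAM17 were called in neither line. ADAM10, the Notch and cadherin sheddase, was at 138, 159.7 and 186 in MeWo control and at 169.8, 85.7 and 140.2 with Dox (log2 -0.33, adjusted p = 0.276). In SkMel28 it was at 53.2, 55.2 and 54.4 in control and at 78.1, 71.9 and 55.6 with Dox (log2 0.32, adjusted p = 0.364). ADAM17, which releases TNF and EGF receptor ligands, was at 22.7, 29.1 and 26.9 in MeWo control and at 27.1, 20.8 and 10.2 with Dox (log2 -0.51, adjusted p = 0.202), and changed by 0.13 in SkMel28 (adjusted p = 0.823). Without MeWo Dox replicate 1 both were called lower in MeWo, ADAM10 at -0.54 (adjusted p = 0.0266) and ADAM17 at -0.80 (adjusted p = 0.0181).

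Of 8 ADAMTS and ADAMTS-like genes, 3 were called in SkMel28, all higher, and 1 in MeWo, lower. ADAMTS1, a secreted aggrecanase and versicanase, went there from 2.51, 4.13 and 3.45 to 16.0, 14.7 and 8.16, which was 3.86-fold higher without overlap (log2 1.65, SE 0.33, adjusted p = 0.00297). In MeWo it was at 6.91, 8.55 and 14.6 in control and at 18.8, 10.2 and 23.7 with Dox, with overlap (log2 0.74, SE 0.33, adjusted p = 0.134). ADAMTS17 (chr15:99971437-100342005, minus strand), a family member linked to connective tissue disease, went in SkMel28 from 4.73, 4.13 and 3.83 to 20.5, 21.7 and 19.0. It was 4.83-fold higher (log2 2.04, SE 0.27, adjusted p = 7.63e-05), whereas in MeWo each library held at most 2 reads. ADAMTS9, which cleaves versican, went in SkMel28 from 5.01, 5.39 and 6.13 to 18.1, 16.0 and 13.6, 2.89-fold higher (log2 1.37, SE 0.35, adjusted p = 0.0179). The ADAMTS9 call was lost without SkMel28 control replicate 1 or 2 or Dox replicate 1 or 2 (log2 1.28 to 1.36, adjusted p = 0.0522 to 0.0795) and with a replicate block (adjusted p = 0.0507). With a pseudocount of 0.1 the SkMel28 calls of ADAMTS17 (adjusted p = 0.0782), ADAMTS9 (adjusted p = 0.139) and ADAM19 (adjusted p = 0.105) were lost.

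ADAMTS14, a procollagen N-propeptidase, was the only ADAMTS gene called in MeWo. Its control libraries were at 4.03, 5.05 and 5.83 and its Dox libraries at 3.51, 0.758 and 1.02, 2.82-fold lower without overlap (log2 -1.23, SE 0.32, adjusted p = 0.0132). The call was lost without MeWo control replicate 3 (log2 -1.13, adjusted p = 0.0604), without MeWo Dox replicate 2 (log2 -0.97, adjusted p = 0.0705) or 3 (log2 -1.07, adjusted p = 0.0674), and with edgeR (adjusted p = 0.0741), DESeq2 (adjusted p = 0.176), a pseudocount of 0.1 (adjusted p = 0.0812) or MeWo fitted alone (adjusted p = 0.123). No read was found in any SkMel28 library.

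Of the 3 TIMPs and RECK, 3 were called in MeWo and 2 in SkMel28, all higher. TIMP3, which stays bound to the matrix and also inhibits ADAM17 and ADAMTS enzymes (chr22:32801705-32863041, plus strand), went in MeWo from 149, 151 and 167 to 486, 428 and 519 and in SkMel28 from 429.6, 431 and 423 to 863, 861 and 864. The groups did not overlap, with means 3.07-fold higher in MeWo (log2 1.61, SE 0.10, adjusted p = 9.47e-09) and 2.02-fold higher in SkMel28 (log2 1.01, SE 0.10, adjusted p = 4.27e-06). TIMP1, a secreted inhibitor of most MMPs (chrX:47582408-47586789, plus strand), went in MeWo from 90.4, 93.6 and 87.8 to 249.9, 168 and 149, which was 2.09-fold higher (log2 1.02, SE 0.17, adjusted p = 0.000492). In SkMel28 it went from 202, 142 and 205 to 246, 259 and 298, also without overlap, and the 1.46-fold rise was called at the threshold (log2 0.56, SE 0.17, adjusted p = 0.0458). This SkMel28 call was lost in 13 of 22 alternatives, among them the leaving out of any single SkMel28 library or MeWo control library (log2 0.39 to 0.65, adjusted p = 0.0599 to 0.205).

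TIMP2, which both inhibits MMPs and joins MMP14 in the activation of pro-MMP2 (chr17:78852977-78925387, minus strand), had the highest level of all members in 3 of the 4 groups. In MeWo its control libraries were at 3829, 3257 and 3009 and its Dox libraries at 3361, 6020.1 and 5879.8, where Dox replicate 1 lay within the controls. The mean was 1.51-fold higher (log2 0.55, SE 0.17, adjusted p = 0.0372), and the change was 0.83 without that library (adjusted p = 8.51e-06). The call was lost in 9 of 22 alternatives, among them without MeWo control replicate 2 or 3, MeWo Dox replicate 2 or 3 or SkMel28 Dox replicate 2 (log2 0.41 to 0.55, adjusted p = 0.0544 to 0.168) and with a replicate block (adjusted p = 0.0581). In SkMel28 it was at 966, 1119.8 and 1144 in control and at 1077, 1149 and 1217 with Dox (log2 0.09, adjusted p = 0.81). RECK, a membrane-anchored MMP inhibitor, was at 2.72 to 7.79 in MeWo and at 5.29 to 12.5 in SkMel28, with changes of 0.45 (adjusted p = 0.312) and 0.74 (adjusted p = 0.125). BSG, or basigin, a surface protein known for inducing MMPs in neighbouring cells, was at 163, 156 and 147 in MeWo control and at 134, 211 and 218 with Dox (log2 0.24, adjusted p = 0.295), and its value was 0.46 without MeWo Dox replicate 1 (adjusted p = 0.00134). In SkMel28 BSG was at 229, 265 and 244 in control and at 207, 195 and 195 with Dox, with all Dox libraries lower and no call (log2 -0.30, SE 0.15, adjusted p = 0.231). It was called lower there with SkMel28 fitted alone (adjusted p = 0.0428) and without MeWo Dox replicate 1 (adjusted p = 0.023).

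The next comparison asked whether the change with Dox differed between the lines. Of 41 members 7 were called (17.1%), 5 with the larger or more positive change in MeWo and 2 in SkMel28, beside 7.09% of all genes (3.71% higher and 3.38% lower). The members more positive in MeWo were SERPINA5 by 3.12 (SE 0.46, adjusted p = 0.000686), SERPINA3 by 3.06 (SE 0.39, adjusted p = 0.00018), ADAM15 by 1.72 (SE 0.31, adjusted p = 0.00288), ADAM23 by 0.81 (SE 0.23, adjusted p = 0.0448) and TIMP3 by 0.60 (SE 0.14, adjusted p = 0.0178). ADAM15 was the only one of them whose changes had opposite signs. SERPINA3, ADAM23 and TIMP3 rose in both lines and further in MeWo. SERPINA5 was listed only through its MeWo Dox libraries, which bears on its interaction too. ADAMTS17 was more positive in SkMel28, with an interaction of -2.08 (SE 0.38, adjusted p = 0.0035), and for MMP2 it was -1.49 (SE 0.38, adjusted p = 0.0256).

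**Figure D4:**
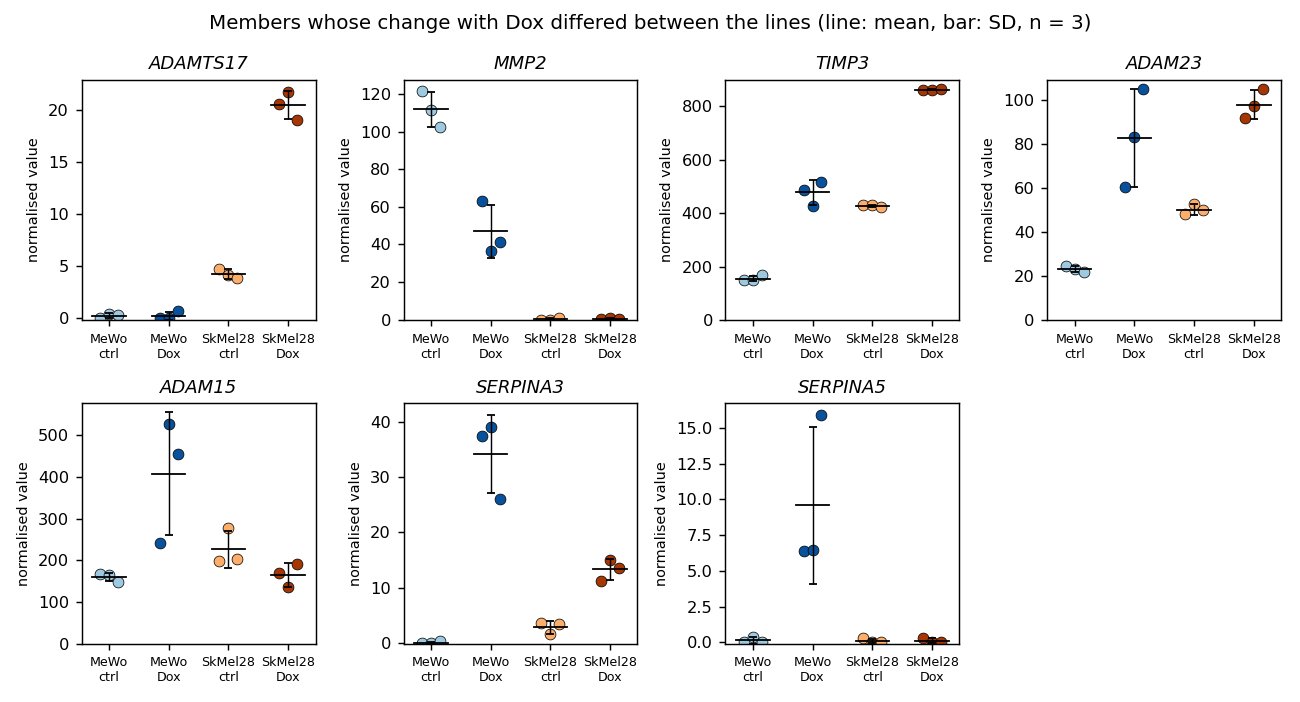
Normalised value (linear axes) in every library of the 4 groups for the 7 members whose change with Dox was called different between the lines, with 1 point per library, a line at the mean and a bar of 1 SD (n = 3). SERPINA5 is seen in MeWo Dox alone, MMP2 in MeWo and ADAMTS17 in SkMel28, while ADAM15 is highest in MeWo Dox.

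Only ADAM15 and SERPINA3 kept the interaction call in all 21 alternatives. The ADAM23 call was lost in 15 of them, among them without any single library other than MeWo Dox replicate 1 (log2 0.62 to 0.86, adjusted p = 0.0577 to 0.11). MMP2 lost it in 12, including edgeR (adjusted p = 0.321) and the leaving out of any MeWo control library, MeWo Dox replicate 2 or 3, SkMel28 control replicate 1 or 2 or SkMel28 Dox replicate 2 (log2 -1.34 to -1.55, adjusted p = 0.0532 to 0.0696). TIMP3 lost it without MeWo control replicate 1 (log2 0.57, adjusted p = 0.0511) or 2 (log2 0.58, adjusted p = 0.0599), SkMel28 Dox replicate 2 (log2 0.60, adjusted p = 0.0514) and without the mean-variance trend (adjusted p = 0.0825). ADAMTS17 (adjusted p = 0.391) and SERPINA5 (adjusted p = 0.228) were not called with edgeR, nor was ADAMTS17 with DESeq2 (adjusted p = 0.39) or a pseudocount of 0.1 (adjusted p = 0.139), which is given because MeWo and SkMel28 respectively were at the floor for these genes. Without MeWo Dox replicate 1, 17 members were called, which included the 7, and 24.7% of all genes. SERPINE2 (-1.14, adjusted p = 3.82e-05), SERPINH1 (1.07, adjusted p = 0.000543), TIMP2 (0.74, adjusted p = 0.000961) and BSG (0.76, adjusted p = 0.00035) were among those added. With all libraries SERPINE2 was at -0.83 (SE 0.27, adjusted p = 0.0679) and SERPINH1 at 0.82 (SE 0.26, adjusted p = 0.0653). For PLAT the difference was 0.41 (SE 0.20, adjusted p = 0.22) and for MMP15 it was 0.09 (SE 0.36, adjusted p = 0.91), and neither value shows that the lines responded alike.

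The uninduced lines were compared last, to show from which level each gene started. Here 25 of 41 members were called (61.0%), 16 higher and 9 lower in SkMel28, beside 51.4% of all genes (26.6% higher and 24.8% lower), so that the members were not far from the background. The highest of the called members were ADAM19 (log2 2.76, SE 0.35, adjusted p = 4.32e-06), ADAMTS17 (log2 2.09, SE 0.27, adjusted p = 5.36e-06), MMP17 (log2 1.97, SE 0.29, adjusted p = 2.16e-05), MMP16 (log2 1.96, SE 0.27, adjusted p = 1.29e-05) and PLAUR (log2 1.95, SE 0.20, adjusted p = 3.96e-07). In level, PLAUR was 4.09-fold, MMP16 5.56-fold and MMP17 5.08-fold higher in SkMel28 control than in MeWo control. The ratio was 20.3 (counting interval 7.62 to 76.1) for ADAM19 and 19.5 (5.07 to 167) for ADAMTS17, which had 2 reads in all MeWo control libraries and 40 in SkMel28.

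The lowest was MMP2, with 1026 reads in MeWo control and 2 in SkMel28 control, a 525-fold lower level by summed reads with a counting interval of 145 to 4.34e+03 (log2 -6.54, SE 0.27, adjusted p = 3.62e-12). ADAM11, a non-catalytic ADAM of neurons, was 9.85-fold lower, at 19.9, 16.7 and 17.8 against 2.78, 1.59 and 1.15 (log2 -2.79, SE 0.37, adjusted p = 6.99e-06). ADAMTS14 was at least 4.32-fold lower, taking the floor of 3 reads per library for SkMel28 (log2 -2.57, SE 0.32, adjusted p = 3.25e-06). TIMP2 was 3.12-fold lower (log2 -1.64, SE 0.17, adjusted p = 5.14e-07), and ADAM12, a sheddase of HB-EGF, was lower by 1.58 on the log2 scale (log2 -1.58, adjusted p = 0.00258). ADAM10 was 2.97-fold lower (log2 -1.54, SE 0.20, adjusted p = 4.89e-06). PLAT (log2 1.79), TIMP3 (log2 1.46), TIMP1 (log2 0.99), SERPINE2 (log2 1.04) and SERPINB6 (log2 1.51) were all called higher in SkMel28 control.

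**Figure D5:**
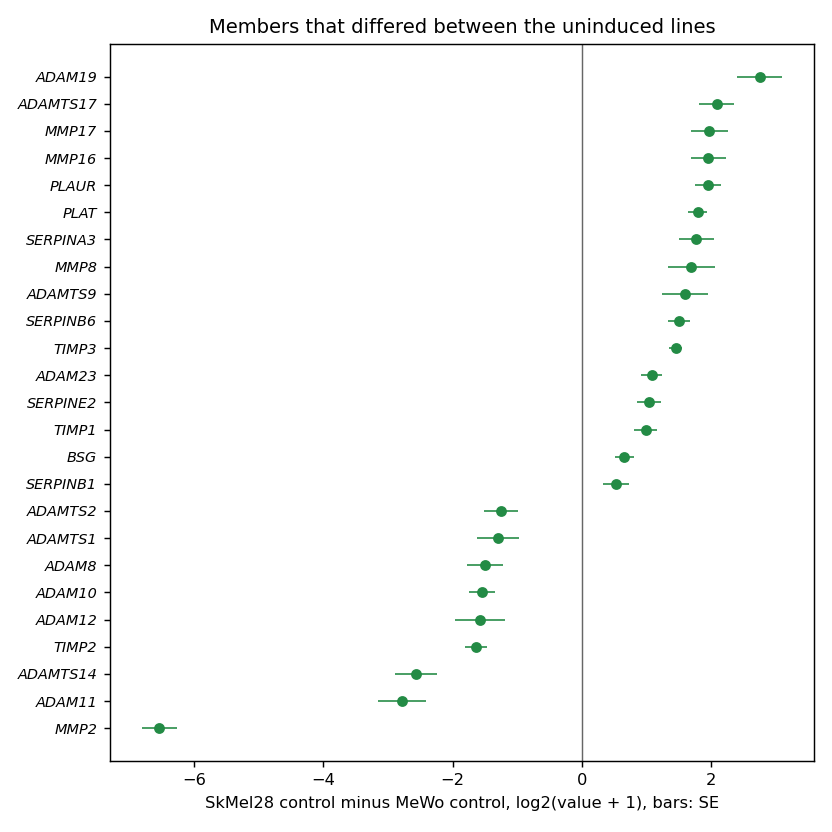
Difference between the uninduced lines (SkMel28 control minus MeWo control) as a difference of log2(value + 1) with bars of 1 SE for the 25 members that were called, ordered by value. The points run from 2.76 for ADAM19 down to -6.54 for MMP2.

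Genes that act with these proteases were counted by lists, to be read beside the 16.7% of all genes called in MeWo and the 10.9% called in SkMel28. The convertases in MeWo, with 2 higher and 1 lower of 15, lay near the MeWo share, and the other counts lay further above. The lists were chosen with earlier results of these data known, which these shares do not take into account, and they were not tested as sets. Of 16 listed plasminogen receptors and receptors that clear protease-serpin complexes, 5 were called higher and 1 lower in MeWo and 8 higher in SkMel28 (median changes 0.30 and 0.46). MRC2, an endocytic receptor for collagen that associates with PLAUR, had a mean of 0.976 in MeWo control and of 5.10 with Dox (adjusted p = 0.0017, log2 1.65), and of 2.33 and 6.63 in SkMel28 (adjusted p = 0.015, log2 1.28). LRP1, which takes up PLAT and serpin complexes, rose by 0.96 in MeWo (adjusted p = 0.0377) and by 1.01 in SkMel28 (adjusted p = 0.0397). ANXA2, a co-receptor of PLAT and plasminogen, was at 168 in SkMel28 control and higher, at 348, with Dox (adjusted p = 0.00018, log2 1.07) and was at 295 and 242 in MeWo (adjusted p = 0.18). Of 15 listed convertases and partners of ADAM10 and ADAM17, 2 were higher and 1 lower in MeWo, and 2 higher and 3 lower in SkMel28 (medians 0.15 and 0.06). FURIN, which cuts the propeptides of many of these enzymes, was at 91.5 in MeWo control and 157 with Dox (adjusted p = 0.0014, log2 0.79), and the tetraspanin TSPAN10 fell by 2.57 in MeWo and by 2.13 in SkMel28 on the log2 scale.

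Of 17 other protease inhibitors, 1 was higher and 5 lower in MeWo and 3 higher and 3 lower in SkMel28 (medians -0.13 and 0.26). The cystatin CST1, an inhibitor of cysteine proteases, was at 17.1 in MeWo control and 2.41 with Dox (adjusted p = 9.8e-08, log2 -2.40), and at 91.2 and 28.8 in SkMel28 (adjusted p = 1.5e-05, log2 -1.63). TFPI2, a Kunitz-type inhibitor of plasmin, was at 3.56 in SkMel28 control and 13.6 with Dox (adjusted p = 0.0012, log2 1.67). Among 23 other secreted or surface proteases, 5 were higher and 2 lower in MeWo and 3 higher and 1 lower in SkMel28 (medians 0.22 and 0.18). The procollagen C-proteinase BMP1 was at 13.2 in MeWo control and 51.0 with Dox (adjusted p = 4.1e-05, log2 1.80), and the lysosomal collagenase CTSK at 278 and 20.7 (adjusted p = 6.1e-09, log2 -3.79). The endopeptidase MME fell in both lines, by 1.34 in MeWo and by 1.52 in SkMel28.

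Of 36 listed substrates, 10 were higher and 6 lower in MeWo and 12 higher and 2 lower in SkMel28 (medians 0.30 and 0.54). The ADAM10 substrate CDH2, or N-cadherin, was at 30.2 in MeWo control and 113 with Dox (adjusted p = 3.4e-05, log2 1.79), and at 13.0 and 50.4 in SkMel28 (adjusted p = 3.4e-05, log2 1.88), while the receptor MET fell by 1.70 and by 1.07. FN1, or fibronectin, was at 1338 in SkMel28 control and 4491 with Dox (adjusted p = 1.9e-05, log2 1.76) and was at 45.9 and 47.7 in MeWo. Of 24 listed AP-1, ETS, NF-kB and related transcription factors, 6 were higher and 3 lower in MeWo and 6 higher and 1 lower in SkMel28 (medians 0.22 and 0.29). JUN rose by 1.87 in SkMel28 and by 0.58 in MeWo on the log2 scale, ATF3 by 1.63 in SkMel28 and FOSL1 by 0.81 in MeWo. STAT3 rose by 1.22 in MeWo. Called lower were SNAI2 (-0.85), ETV5 (-0.78) and ETS1 (-0.64) in MeWo and ETV5 (-0.47) in SkMel28.

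Low levels limited some members. At most 3 reads per library were found for 6 members in MeWo control (ADAM19, ADAM22, ADAMTS17, MMP1, SERPINA3 and SERPINA5) and for 6 in SkMel28 control (ADAMTS2, ADAMTS5, ADAMTS14, MMP1, MMP2 and SERPINA5), and the members' median level was 7.96 and 9.01 in these groups and 17.6 and 20.4 with Dox. Without MeWo Dox replicate 1, ADAMTSL5 was called lower in MeWo (log2 -0.86, adjusted p = 0.021) and ADAM22 higher in SkMel28 (log2 1.04, adjusted p = 0.0415), which they were not with all libraries. In GENCODE release 44, 6 members overlapped another listed gene (ADAM9 with TM2D2, ADAM10 with HSP90AB4P, ADAM17 with IAH1, ADAM19 with CYFIP2, ADAMTS13 with REXO4 and TIMP3 with SYN3), and since the strand used for counting is not given in the sources used here, reads of such pairs may have been assigned to either gene. Transcripts of SERPINA3 (9 of 9) and SERPINA5 (4 of 12) end inside ENSG00000273259, an unlisted protein-coding gene on the same strand. Whether this affected their values was not tested.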

How the data were processed

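RNA of MeWo and SkMel28 cells was made into 12 libraries and sequenced from its 3′ ends (QuantSeq Forward, total RNA, ERCC spike-ins). Per the submitters' processing notes, FastQC 0.11.7, cutadapt 2.8, STAR 2.5.1b, hg38 and edgeR were used. The counting tool, annotation and strand are not given in the sources used here. The deposited values are a normalised signal: per the labels it was made with edgeR, and reads were scaled by the effective library size. The authors had kept rows in a way that leaves every listed row at 1 or more in at least 3 libraries. All values (100%, tolerance 0.01) were whole multiples of a step, so reads were recovered. The table held 12683 rows. The 67 spike-ins, at 5.69 to 8.55% of reads, were set aside.

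Values were fitted as log2(value + 1) with limma 3.58.1 (lmFit, eBayes with trend, R 4.3.3) with 4 group means over the 12 libraries. Dox was compared with control within MeWo and within SkMel28, and these changes with each other, and uninduced SkMel28 with uninduced MeWo. P-values were two-sided and Benjamini-Hochberg adjusted over 12616 genes. Alternatives were edgeR 4.0.16 and DESeq2 1.42.0 on recovered reads, 2 scalings, pseudocounts of 0.1 and 5, a filter (5 in 3 libraries), no trend, a replicate block, each line alone and each library left out. A group was at the floor where every library held at most 3 reads, and ratios against few reads carry exact 95% intervals. Reads without molecular identifiers are not independent molecules, so intervals and floors cover counting error only. The fit was tested on simulated data.

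The members and lists were chosen with earlier results of these data known. Named were members called with Dox or in the interaction, the 5 highest and 5 lowest called in the uninduced comparison, a set of members of known role, and up to 3 called genes per list and direction. Loci are from GENCODE release 44 (hg38) and promoters from RefSeq. No protein sequences were used.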

Additional observations from a re-analysis of the deposited data

Results flagged for a closer look

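For 7 members the change with Dox differed between the lines by the interaction test of limma, which flagged them for a closer look. The MeWo change minus the SkMel28 change was 3.12 for SERPINA5, 3.06 for SERPINA3, 1.72 for ADAM15, 0.81 for ADAM23, 0.60 for TIMP3, -1.49 for MMP2 and -2.08 for ADAMTS17. SERPINA5, MMP2 and ADAMTS17 were at the floor in a whole line, and SERPINA5 was listed only through MeWo Dox. No group had more than 3 libraries, so no library was tested as an outlier.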

How the results depend on the processing

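No member changed direction while called under any alternative. Of the 17 members called in MeWo, 9 were called in all 22 alternatives, as were 10 of the 15 in SkMel28. In the uninduced comparison 24 of 25 were called in every alternative, of 21, that tested them, with SERPINB1 as the exception (0.53, and 0.32 without MeWo control replicate 2). There the filter of 5 in 3 libraries tested 34 members and called 23. In the interaction 2 of 7 were called in all 21. Fitting each line alone left fewer samples behind each variance in both lines. The MeWo count then dropped to 10 members (8 higher, 2 lower), and its called genes went from 2107 to 813. For SkMel28 the count stayed at 15 members, and its called genes went from 1378 to 1558. The MeWo Dox libraries were the least alike, with correlations down to 0.960, beside lowest values of 0.979 to 0.984 in the other groups. Whether this spread lowered the MeWo count was not tested. Interaction counts fell to 4 with edgeR and to 4 with a pseudocount of 0.1, and the cause was not tested. With 1 library left out at a time, counts ran from 14 to 21 in MeWo, 12 to 19 in SkMel28, 4 to 17 in the interaction and 24 to 26 between the uninduced lines. The interaction count was 4 without MeWo control replicate 2 or SkMel28 Dox replicate 2 and 17 without MeWo Dox replicate 1. Scaling to spike-ins moved the median gene by 0.224 in MeWo, -0.079 in SkMel28, 0.296 in the interaction and 0.132 between the uninduced lines, and 18, 13, 8 and 26 members were called. Under it 84.6% of the genes called in MeWo, 42.5% in SkMel28, 89.5% in the interaction and 61.9% in the uninduced comparison were higher, and of the 8 members called in the interaction 7 were. Replicate numbers did not pair the libraries (correlations of deviations -0.181 to 0.159). With a replicate block 16, 14, 6 and 25 members were called. All library pairs within groups differed by more than sampling noise. Depth limits members near the floor, where a change could not be measured.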
